A study of Mus musculus with 28 samples.

Results

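Gpr6, Gpr52, P2ry1, Grik3, Ttc12 and Ankk1 were examined as further genes tied to the indirect pathway of the striatum, 6 of the 21939 protein-coding genes considered. Gpr6, Gpr52, P2ry1 and Grik3 were taken as known markers of indirect pathway neurons. Ttc12 and Ankk1 were taken because they lie beside Drd2, the D2 dopamine receptor gene. No value in the lists enters this choice as a rule, although it was made with earlier results of these data known. Expression was not measured in these lists, so the marker role of each gene is background here.

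The chromatin came from striatal nuclei of mice carrying the Cre-dependent nuclear envelope tag Sun1-sfGFP, on a C57BL/6J background, males and females about 8 weeks old by the paper's methods. Its results give a wider range of ages and name age among possible sources of the global signal difference between A2a and D1. The A2a group was Sun1-sfGFP;A2a-cre, in which Cre is driven from the adenosine A2a receptor gene, and the D1 group was Sun1-sfGFP;Drd1-cre, in which Cre is driven from the D1 dopamine receptor gene. Nuclei were purified by INTACT, an affinity capture of GFP-tagged nuclei, and profiled by CUT&RUN (CnR), which releases antibody-bound chromatin with a tethered nuclease. Each of the 4 lists pools 2 replicates of 1 cell type and 1 histone mark, H3K4me3 with the Abcam antibody and H3K27me3 with the Active Motif antibody. The labels of the D1 H3K27me3 samples disagree, because the source name gives A2a and both other fields give D1. These samples were treated as D1, on which all H3K27me3 differences given here depend. Islands covered Drd1 100% in the A2a list and 27.6% in the D1 list, and Pdyn 100% and 6.54%. Of the 8 direct pathway markers examined, Sfxn1 alone was covered more in the D1 list, 9.18% against 6.76%. These values come from the same lists, and the label was not tested apart from them.

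Medium spiny neurons (MSNs) of the indirect pathway carry the A2a and D2 receptors and project to the external pallidum, and those of the direct pathway carry the D1 receptor and project to the output nuclei of the basal ganglia. H3K4me3 marks the promoters of active and poised genes in narrow peaks. H3K27me3, laid down by Polycomb repressive complex 2, covers silenced genes and can spread into wide domains, and a promoter with both marks is called bivalent.

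The list of RefSeq promoter sequences (GRCm38.p6, from 250 bases before the start of transcription to 50 after it) held 4 of the genes. They are shown because they lie within the promoters at which the lists were compared, and each CG dinucleotide, the site of DNA methylation in mammals, is in capitals. The sequences lie at chr10:41072241-41072540 (Gpr6, minus strand), chr3:61002535-61002834 (P2ry1, plus strand), chr4:125490446-125490745 (Grik3, plus strand) and chr9:49486176-49486475 (Ttc12, minus strand). Those of Gpr52 and Ankk1 are not shown.
Gpr6: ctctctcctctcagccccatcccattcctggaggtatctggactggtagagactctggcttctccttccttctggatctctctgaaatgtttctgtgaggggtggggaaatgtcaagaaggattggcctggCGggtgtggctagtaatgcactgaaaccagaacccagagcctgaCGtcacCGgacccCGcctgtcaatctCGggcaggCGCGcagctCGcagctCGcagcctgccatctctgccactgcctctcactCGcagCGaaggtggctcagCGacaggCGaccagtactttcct
P2ry1: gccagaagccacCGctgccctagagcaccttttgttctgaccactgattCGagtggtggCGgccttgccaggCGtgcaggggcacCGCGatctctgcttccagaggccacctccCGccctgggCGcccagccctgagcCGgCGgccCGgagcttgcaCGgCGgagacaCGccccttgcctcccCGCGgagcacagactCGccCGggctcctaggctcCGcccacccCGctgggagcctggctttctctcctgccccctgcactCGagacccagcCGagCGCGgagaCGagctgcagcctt
Grik3: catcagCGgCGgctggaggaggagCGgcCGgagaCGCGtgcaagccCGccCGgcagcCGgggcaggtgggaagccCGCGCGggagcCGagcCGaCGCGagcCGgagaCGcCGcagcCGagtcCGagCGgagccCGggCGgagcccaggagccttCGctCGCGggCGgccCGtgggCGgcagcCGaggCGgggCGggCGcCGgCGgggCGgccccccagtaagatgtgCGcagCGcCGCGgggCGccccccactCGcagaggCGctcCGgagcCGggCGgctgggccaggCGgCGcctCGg
Ttc12: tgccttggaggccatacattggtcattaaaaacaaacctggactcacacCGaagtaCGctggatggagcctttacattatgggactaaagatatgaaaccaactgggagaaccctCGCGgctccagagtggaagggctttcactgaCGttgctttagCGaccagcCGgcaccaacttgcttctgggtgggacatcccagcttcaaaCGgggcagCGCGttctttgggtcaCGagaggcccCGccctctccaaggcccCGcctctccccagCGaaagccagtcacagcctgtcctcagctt

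The Grik3 window held 50 CG dinucleotides, a number reached by 0.855% of the 32851 RefSeq promoters of this length. The P2ry1 window held 25 (reached by 18.4%), Ttc12 held 14 (36.3%) and Gpr6 held 13 (37.9%), against a median of 7, and 94.6% of promoters held at least 1. In the D1 list an H3K27me3 island covered all 300 bases of each of the 4 windows. In A2a an island covered the P2ry1 window alone. H3K4me3 peaks covered all of the Gpr6, P2ry1 and Grik3 windows in both cell types, and 208 bases of the Ttc12 window in A2a and none in D1.

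In D1 MSNs H3K27me3 islands covered more of every one of these genes than in A2a MSNs. Coverage here is the percent of the gene and the 2 kb before its start that lay under islands. Gpr6 was covered 0% in A2a and 100% in D1, and Ankk1 likewise 0% and 100%. Grik3 was covered 1.91% in A2a and 83.1% in D1. Ttc12 was covered 17.9% in A2a and 87.1% in D1. P2ry1 was covered 48.9% in A2a and 73.4% in D1, and Gpr52 0% in A2a and 31.5% in D1. The first 4 differences were wide and the last 2 smaller, with P2ry1 alone of the 6 already covered over much of its length in A2a. The median difference of the 6 genes, D1 minus A2a, was 75.1 percentage points with a range of 24.4 to 100, beside a median of 0 over all 21939 genes and a 5th to 95th percentile range of -30.1 to 0.

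**Figure D1:**
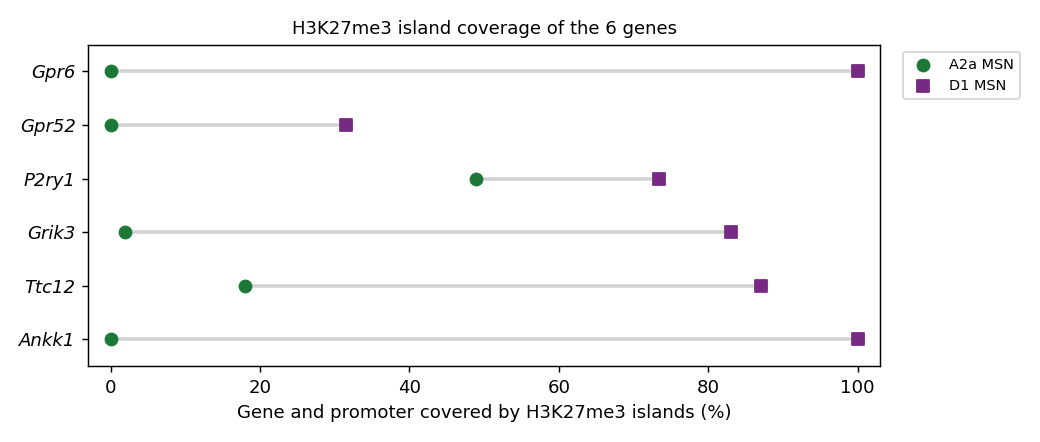
Percent of each gene and its 2 kb upstream region (x axis) under H3K27me3 islands in A2a (green circles) and D1 MSNs (purple squares), 1 value per pooled list and so without error bars. Every square lies right of its circle, from 24.4 points for P2ry1 to 100 points for Gpr6 and Ankk1.

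Of the 6 genes, 4 (Gpr6, Grik3, Ttc12 and Ankk1) were covered at least 50 points more in D1, a difference that 35 genes, 0.160% of all, reached. Ttc12 and Ankk1 were chosen for lying beside Drd2, at which the paper reports less H3K27me3 in A2a than in D1. With islands no more than 5 kb apart joined, they share 1 D1 domain with Drd2. This count and the median difference given above thus rest on fewer separate loci than genes. None of the 6 was covered at least 50 points more in A2a, where 381 genes, 1.74%, were. D1 had the fewer islands, 45760 against 60191, and they covered 184.1 Mb against 301.0 Mb, so wider coverage in D1 was the rarer direction in these lists. The lists are not normalized to each other, and the islands held 7878685 reads in D1 against 22091634 in A2a. For greater global signal in A2a the paper proposes sources such as cell number, immunoprecipitation or batch, rather than biology. Shares over all genes thus depend on these list-wide differences, whose source was not tested here. Only 3 genes reached a difference of 100 points, Gpr6, Ankk1 and the A2a receptor gene Adora2a. A short region can be filled by 1 island, and gene and promoter measured 4.31 kb at Gpr6, 13.8 kb at Ankk1 and 225.5 kb at Grik3. The order by points is therefore not an order of domain size. Differences at least as large as that of Grik3 were found at 10 genes, of Ttc12 at 19, of Gpr52 at 72 and of P2ry1 at 111. Among the 6 genes the nearest below the 50 point threshold was Gpr52, with 31.5 points, and the nearest above it Ttc12, with 69.1. The lists pool replicates, so none of these differences was tested across mice. In the paper the D1 H3K27me3 replicates correlated less with each other than the A2a replicates did. Their correlation was about as high as that between D1 and A2a.

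**Figure D2:**
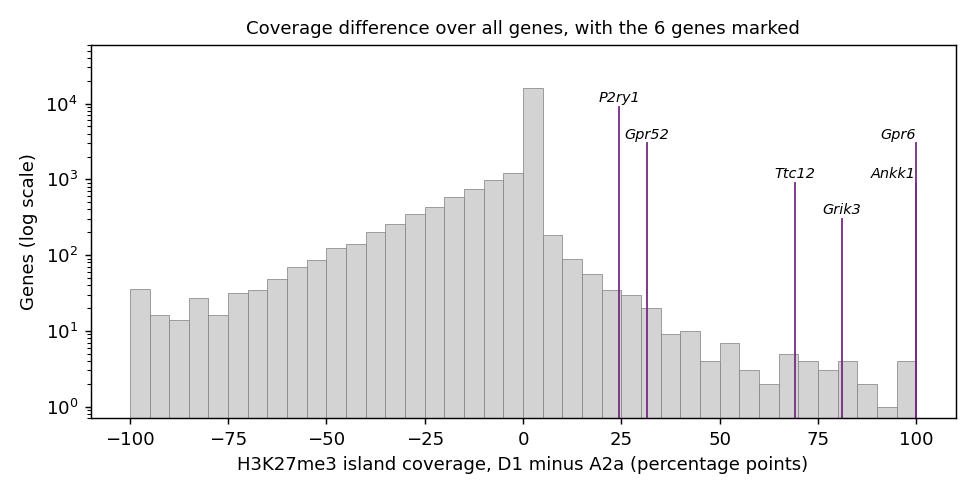
Number of genes (log scale) by H3K27me3 island coverage in D1 minus A2a, in bins of 5 percentage points over 21939 genes, with purple lines at the 6 genes. The distribution leans to the left, toward A2a, and the 6 genes lie on its thin right side between 24.4 and 100 points.

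At the promoter, taken as 2 kb before to 1 kb after the start, 3 of the 6 genes (Gpr6, Ttc12 and Ankk1) had an island in D1 and none in A2a, a state found at 220 genes or 1.0% of all. None had an island in A2a and none in D1, a state of 1620 genes or 7.38%. P2ry1 and Grik3 had islands in both lists, as did 14.3% of genes, and Gpr52 had a promoter island in neither. Among the 220 genes with a D1 promoter island alone, the median of the largest promoter island was 92 reads. Ankk1 had the third-largest by reads, Gpr6 the fourth and Ttc12 the tenth. Here too Ttc12 and Ankk1 share a D1 domain with Drd2 and are not separate observations.

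Gpr6 (ENSMUSG00000046922.7, chr10:41069977-41072285, minus strand, with its whole coding sequence under 1 H3K4me3 peak in each list) encodes an orphan receptor that couples to Gs and is active without an added ligand. A single D1 island of 21.8 kb, from -13.7 to 8.08 kb relative to the start, covered gene and promoter and held 1265 reads (95% Poisson interval 1196 to 1337), at the 99.0th percentile of D1 islands by reads. The nearest A2a island lay 36.7 kb from the promoter. Islands no more than 5 kb apart were joined into domains, and in D1 the Gpr6 island was then part of a domain of 184.2 kb with 13 islands and 9065 reads. It was the 14th longest of 28006 D1 domains, and the 66th longest when islands up to 10 kb apart were joined. A2a islands covered 4.89% of its span. The domain held the start of no other protein-coding gene and ran 118.9 kb upstream into the 3′ end of Fig4, whose promoter had no island in either list. The Gpr6 H3K4me3 peak was called at nearly the same position in both lists. In A2a it spanned 2520 bp at 4.27-fold enrichment with a −log10 q of 79.8. In D1 it spanned 2475 bp at 4.58-fold enrichment with a −log10 q of 39.6. Inside the same D1 domain A2a had 5 H3K4me3 peaks and D1 had 4, and those downstream of the gene stood at about the same distances in both, 8.4, 29.4 and 36.7 kb in A2a and 8.6, 29.2 and 36.6 kb in D1. The D1 peak lay entirely under the island, so both marks were called at the Gpr6 promoter in D1 and H3K4me3 alone in A2a.

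Gpr52 (named by RefSeq, chr1:160574717-160579704, minus strand) encodes another orphan receptor that couples to Gs. It lies within Rabgap1l on the same strand and touched 0 annotated exons of that gene. It had the fewest D1 island reads of the 6 genes. The D1 list held 1 island of 2.2 kb and 74 reads (95% Poisson interval 58.1 to 92.9), from 2.50 to 4.70 kb downstream of the start, and 22.6% of D1 islands had that number of reads or fewer. The promoter had no island in either list, and the nearest A2a island was 397.5 kb from it. The H3K4me3 peak at the start was alike in width, 1247 bp in A2a and 1250 bp in D1, at 2.49-fold and 2.78-fold enrichment. The second A2a peak, of 2447 bp, covered 100% of the coding bases. In D1 a peak of 909 bp covered 19.1% of them, and another of 368 bp lay wholly under the D1 island. The widths of the called intervals thus differed mainly in the gene body. The D1 island and the 368 bp peak there were weak calls, the peak with a −log10 q of 3.52, at the 2.47th percentile of its list. Whether the cell types differed at Gpr52 was not tested.

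P2ry1 (ENSMUSG00000027765.6, chr3:61002795-61008982, plus strand) encodes the ADP-responsive P2Y1 receptor, which couples to Gq. It was bivalent in both cell types. The 2 A2a islands held 235 reads in 4.6 kb (95% interval 206 to 267) and 263 reads in 4 kb (232 to 297), and the D1 island held 426 reads in 7.2 kb (387 to 468). The D1 island covered 100% of the promoter window and the A2a islands 66.7%. By reads the D1 island was at the 94.5th percentile of its list, and the larger A2a island at the 62.3rd. Joined islands gave a domain of 14.6 kb in A2a and 38.6 kb in D1, the 738th longest of the D1 domains. The H3K4me3 peak was longer in A2a (3594 bp) than in D1 (2876 bp) and covered the whole coding sequence in both. Enrichment was 3.52-fold in A2a and 3.91-fold in D1.

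Grik3 (ENSMUSG00000001985.9, chr4:125490700-125714173, plus strand) encodes the kainate receptor subunit GluK3. Its D1 domain was the longest of all 28006, at 604.8 kb, with the next at 511.4 kb, and the second longest when islands up to 10 kb apart were joined. It joined 58 islands with 25971 reads, began 347.1 kb upstream of the start and ended 257.7 kb downstream, past the end of the gene. Grik3 was the single protein-coding gene it overlapped. A2a islands covered 4.46% of the same span. Over the gene and promoter D1 had 23 islands, from 67 to 2347 reads, and A2a had 2, with 257 reads in 4.6 kb (95% interval 227 to 290) and 167 reads in 3 kb (143 to 194). Both A2a islands lay at the start, the first from -5.30 to -0.70 kb relative to it and the second from 0.30 to 3.30 kb. The D1 island at the start measured 35.8 kb and held 2347 reads (2253 to 2444). The promoter thus carried both marks in both cell types, while the gene body was covered in D1 almost alone. The H3K4me3 peak spanned 3287 bp in A2a and 2923 bp in D1, at 4.25-fold and 4.35-fold enrichment. Another A2a peak of 305 bp, 37842 bp into the gene, had no counterpart in D1, whereas a peak at about -208 kb from the start was in both lists.

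**Figure D3:**
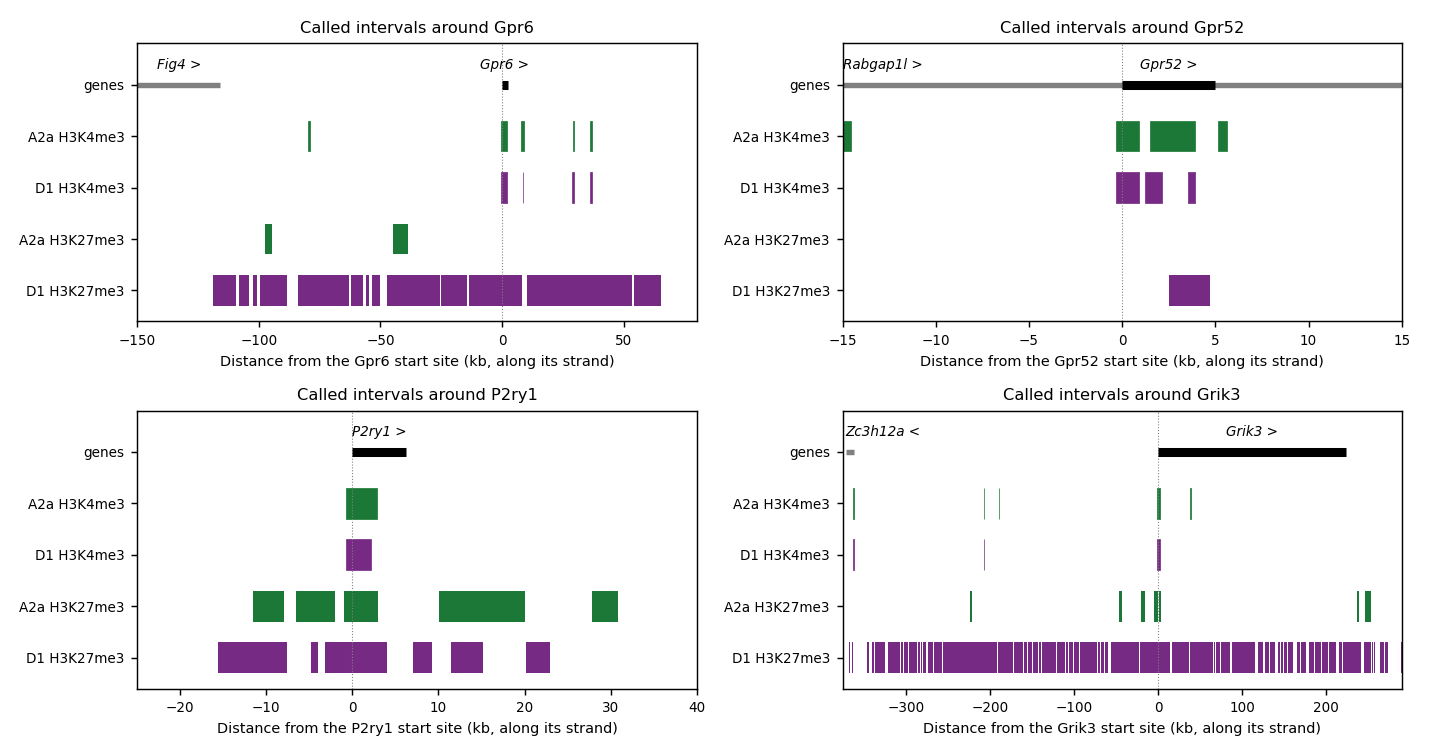
Called intervals around Gpr6, Gpr52, P2ry1 and Grik3, in kb from each start along the strand of the gene, with H3K4me3 peaks and H3K27me3 islands of A2a (green) and D1 (purple), member genes in black and other genes in grey. Very narrow intervals are drawn at a minimum width. D1 islands fill a span of 184.2 kb around Gpr6 and 604.8 kb around Grik3 where A2a has few, occur in both lists at P2ry1, and are limited to 1 short island inside Gpr52.

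Ankk1 and Ttc12 follow each other on the minus strand beside Drd2. Ankk1 (ENSMUSG00000032257.6, chr9:49415194-49427021, minus strand) encodes a protein with ankyrin repeats and a kinase domain, and Ttc12 (ENSMUSG00000040219.4, chr9:49436963-49486225, minus strand) a tetratricopeptide repeat protein known for a role in assembling the dynein arms of cilia. In D1 the 3 genes lay in 1 domain, chr9:49336401-49490600, of 154.2 kb with 12 islands and 6868 reads. It began at -4.23 kb relative to the Drd2 start and ended 4.38 kb beyond the Ttc12 start, 11.5 kb short of Ncam1, which had no island over gene or promoter in either list. This domain was the 30th longest in D1. Beyond its Drd2 end the next D1 domain lay 11 kb away, and D1 islands went on to at least 48 kb before the Drd2 start. With islands joined at up to 3 kb the domain over Ankk1 was 84.4 kb, ranked 72nd, and held the Ankk1 start alone, and with 10 kb the 154.2 kb domain ranked 111th. A2a islands covered 7.65% of it. The domain rested on separate islands, and the Ankk1 island of 36.6 kb, with 1605 reads (95% interval 1527 to 1685), reached from inside Drd2 across all of Ankk1 and stopped short of Ttc12. A2a had no island at Ankk1, the nearest being 12.2 kb from its promoter. At Ttc12 D1 had 5 islands with 2417 reads in 47 kb and A2a had 3 with 561 reads in 9.2 kb. The A2a islands lay between 33.4 and 45.0 kb downstream of the start, toward the end of the gene. The Ttc12 promoter thus had no called island in A2a and lay under an island of 467 reads (426 to 511) in D1.

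H3K4me3 differed between the neighbours. Ttc12 had a peak of 937 bp over its start in A2a, at 6.10-fold enrichment and a −log10 q of 19.1, and none in D1, where the nearest peak was 141.6 kb from the promoter. A promoter peak in A2a alone was found at 569 genes, 2.59% of all. The Ttc12 peak was the 56th strongest of these by −log10 q, whose median was 9.41. Ankk1 had no H3K4me3 peak in either list. Drd2 had a promoter peak in both, at 3.51-fold enrichment in A2a and 3.98-fold in D1. Drd2 itself was covered 2.55% in A2a and 84.5% in D1. Drd2, Ankk1 and Ttc12 share the D1 domain, and Drd2 and Ankk1 an island, so their coverage values are not separate observations.

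**Figure D4:**
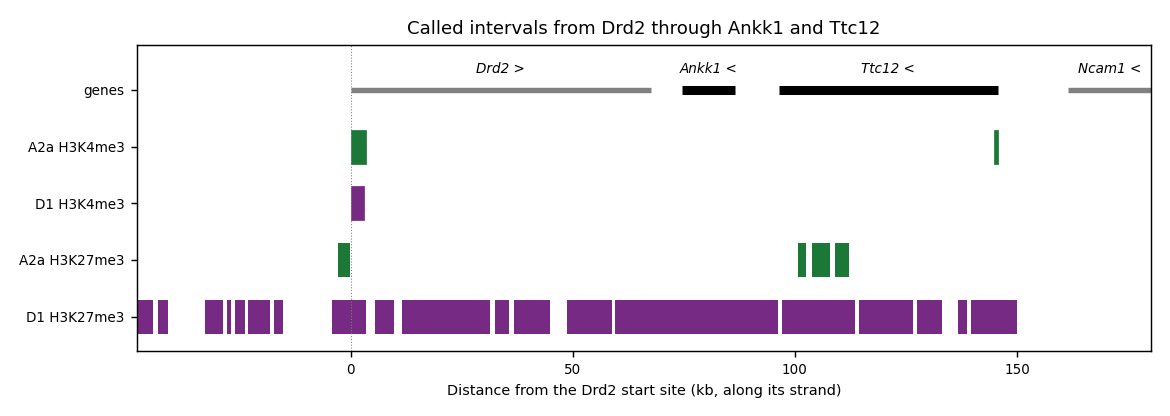
Called intervals from Drd2 through Ankk1 and Ttc12 to Ncam1, in kb from the Drd2 start, with A2a in green and D1 in purple. D1 islands form a domain of 154.2 kb that ends before Ncam1, the A2a list has 4 islands in it, and the Ttc12 promoter has an H3K4me3 peak in A2a alone. Further D1 islands lie upstream of Drd2, outside this domain.

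H3K4me3 was called in both cell types at 4 of the 6 promoters, a share close to that of all genes. Gpr6, Gpr52, P2ry1 and Grik3 had a promoter peak in both lists, a state of 55.6% of genes. P2ry1 and Grik3 were bivalent in A2a, beside 9.54% of genes, and Gpr6, P2ry1 and Grik3 in D1, beside 5.57%. The strength of a peak was read as the percentile of its −log10 q within its own list, since the lists are not normalized to each other. At Gpr6 it was the 55.6th percentile in A2a and the 45.4th in D1. At Gpr52 it was the 44.7th and the 37.0th. At P2ry1 it was the 58.2nd and the 50.3rd, and at Grik3 the 68.2nd and the 49.3rd. All 4 ranks were lower in D1, with differences, D1 minus A2a, of -18.9 to -7.72 points, beside a median of -3.85 points over the 12195 genes with a peak in both lists. A difference as low as that of Grik3 was found at 6.56% of those genes, and as low as the other 3 at 26.2% to 35.2%. Fold enrichment went the other way at the same 4 genes and was higher in D1, so the order of the cell types depended on which deposited value was read. Over the 12195 genes the log2 ratio of fold enrichment, D1 over A2a, had a median of -0.0454. Its 25th to 75th percentile range was -0.191 to 0.0917.

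**Figure D5:**
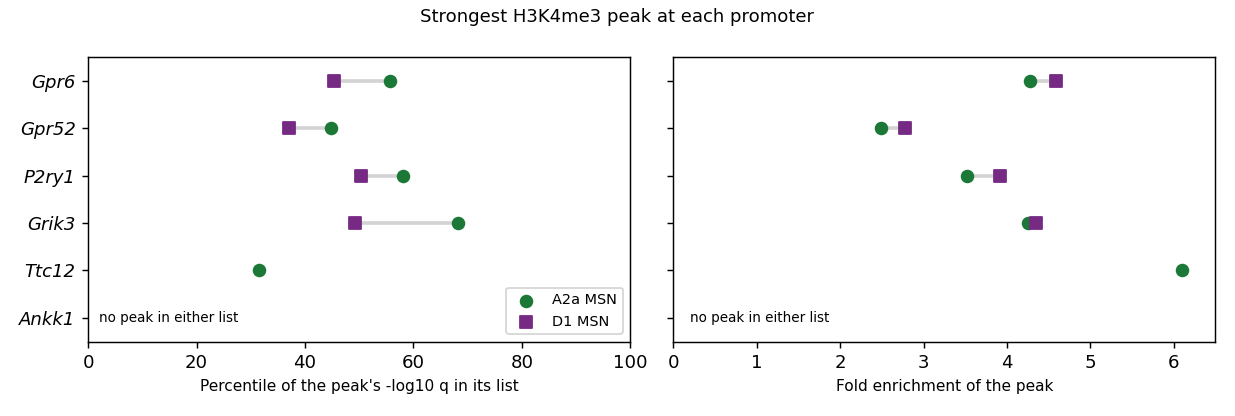
Strongest promoter H3K4me3 peak of each gene in A2a (green circles) and D1 (purple squares), as the percentile of its −log10 q within its list (left) and as fold enrichment (right), 1 value per pooled list. The D1 squares lie left of the circles in the left panel and right of them in the right panel at the 4 genes with a peak in both lists, Ttc12 has an A2a peak alone and Ankk1 has none.

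Overlapping islands of both lists were found at P2ry1, Grik3 and Ttc12, and their reads per kb were set side by side without normalization for depth. The ratio, D1 over A2a, was 1.16 (95% interval 0.985 to 1.36) and 0.900 (0.770 to 1.05) for the 2 overlapping pairs at P2ry1. It was 1.17 (1.03 to 1.34) and 1.18 (1.01 to 1.39) at Grik3, and between 0.906 and 1.07 for the 3 pairs at Ttc12. Over all 38778 overlapping pairs of islands the median ratio was 0.555, with a 5th to 95th percentile range of 0.392 to 0.787. Each pair at these genes was at or above the 98.4th percentile of pairs. A raw ratio near 1 does not show equal density, since the A2a islands held 22091634 reads and the D1 islands 7878685 in all. The paired islands also differed in length (at Grik3 35.8 kb in D1 against 4.6 and 3 kb in A2a), and 1 D1 island served in 2 or 3 pairs of a gene. The intervals cover counting error only. Library depth cannot be read from the lists, and a gene without an island can still have had reads.

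The 4 established markers of the indirect pathway showed the same direction. Adora2a, Drd2, Penk and Sp9 were covered 33.8 to 100 points more in D1, with a median of 67.6, and 3 of the 4 by at least 50 points. Adora2a had a promoter island in D1 alone, with 4153 reads in 45 kb. Of 8 markers of the direct pathway, 4 (Drd1, Tac1, Pdyn and Chrm4) were covered at least 50 points more in A2a and none in D1, with a median of -53.4 points. Chrm4 had a promoter island in A2a alone (495 reads), and Sfxn1 in D1 alone (99 reads in 3 kb).

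The other kainate subunits, the other P2Y receptors and the relatives of Gpr6 and Gpr52 were not covered more in D1. Grik3 was the single kainate receptor subunit of 5 with a difference of at least 50 points. Grik2 and Grik5 had no island over the gene or promoter in either list, and Grik1 and Grik4 were covered more in A2a, with differences of -9.70 and -19.2 points. Of 8 P2Y receptor genes, P2ry1 was the one covered more in D1, and P2ry6 had a promoter island in A2a alone, with 321 reads. Gpr3, Gpr12 and Gpr21, the relatives of Gpr6 and Gpr52, had an H3K4me3 promoter peak in both lists and no island in either. In the Drd2 region Tmprss5, on the far side of Drd2, was covered 0% in A2a and 39.6% in D1, and Zw10 and Usp28 had no island. Of the nearest neighbours of the other members, Wasf1 and Fig4 (Gpr6), Cacybp and Rc3h1 (Gpr52), Mbnl1 and Rap2b (P2ry1) and Zc3h12a and Csf3r (Grik3), A2a islands covered Csf3r alone, over 10.0%. In D1 they covered 10.1% of Fig4, 21.0% of Zc3h12a and 0.233% of Csf3r, and none of the others.

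The genes most like each member were sought by distance over 4 values, the H3K4me3 percentile and the H3K27me3 coverage in each cell type. Drd2 was nearest to Gpr6 (distance 16.5) and second nearest to Grik3 (17.4), with Cdca7 nearest to Grik3 (11.5) and Grik3 second nearest to Gpr6 (21.6). Gpr52 was most like Ppp1r26 (7.08) and Fam163b (15.5), and P2ry1 most like Gpr37 (14.5) and Plch1 (19.5). Ankk1, with no H3K4me3 peak called, was most like Gm4894 (2.50), its neighbour beyond Drd2, and Il3 (9.43). The nearest to Ttc12 were Ccin (31.1) and Cpt2 (33.6), so no gene came close to it.

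Markers of other cells were read from the same lists. The 4 markers shared by both kinds of projection neuron (Ppp1r1b, Bcl11b, Foxp1 and Rgs9) had H3K4me3 promoter peaks in both lists and coverage of 0% in A2a and 0 to 1.26% in D1. The 5 interneuron markers had no promoter peak in either list. Promoter peaks in both lists were found at 2 of 5 astrocyte markers, 2 of 5 oligodendrocyte markers and 0 of 5 microglia markers, with peaks in A2a alone at 2 of the oligodendrocyte and 2 of the microglia markers and in D1 alone at Mag. Coverage of glial and interneuron markers differed by at most 6.94 points toward D1 and by up to -62.3 points toward A2a (Tmem119). None had a promoter island in D1 alone, and Cx3cr1 (160 reads) and Aldh1l1 (163 reads) had one in A2a alone. The part of other cells in the values above was not tested.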

How the data were processed

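CnR libraries for H3K4me3 and H3K27me3 from INTACT-purified A2a and D1 MSN nuclei were analysed as 4 lists, which pool 8 of the 28 samples (2 replicates each). The other 20 samples were not analysed here. Reads were aligned by the authors against mm10 using Bowtie2 (2.1.0), filtered with SAMtools (0.1.19) to a mapping quality of at least 20, deduplicated with Picard and limited to inserts of 150 to 500 bp. For H3K4me3 the authors ran MACS2 at a q-value of 0.01, and each deposited peak has a fold enrichment (ratio over local background) and a −log10 q-value. For H3K27me3 the authors ran SICER at a false discovery rate of 0.01 against a control not named in the sources used here. The deposited value is the read count of each island, not normalized for depth. Islands began on a 200 bp grid and were at least 800 bp apart. A wider or deeper list calls more intervals, so absence from a list is not absence of signal.

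Positions are on mm10 (GRCm38), counted from 1. Genes came from GENCODE vM21 (protein-coding, chromosomes 1 to 19, X and Y), and Gpr52, which that table lacked, from RefSeq GRCm38.p6. A peak or island counted at a promoter (2 kb upstream to 1 kb downstream of the 5′ end, as in the study) if it overlapped by at least 1 bp. Percentiles are the share of a list with a value no higher. Intervals are exact Poisson intervals at the 95% level, or their ratio by the exact binomial method. With pooled replicates no test across mice was possible and no p-value is given. The members and gene lists were chosen with earlier results of these data known. All 6 members are named, along with their neighbours, the 2 genes nearest to each over 4 values, and the listed genes by counts, with values where a promoter island was in 1 list alone. One listed marker gene is not reported here. The functions were tested on simulated data, and coverage and promoter call were recovered in all 2000 cases. The software was Python 3.11.15 with numpy 2.4.6, scipy 1.17.1 and, for the plots, matplotlib 3.10.9.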

Additional observations from a re-analysis of the deposited data

How the results depend on the processing

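The 6 counts of members were recomputed under 12 other settings of the promoter window, start site, overlap, thresholds, list length, merging of islands and gene bounds, and all 49 values stayed within 1.5 times the reported count. The single changes came with a promoter of 5 kb on each side, where Gpr52 joined the genes with a D1 island alone (4 of 6) and those with both marks in D1 (4 of 6). Equal list lengths were reached by cutting the A2a lists alone, so counts of genes higher in D1 could not fall under that setting. RefSeq gene bounds were added after seeing the data.

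Percentiles moved with the value used for ranking. By fold enrichment the H3K4me3 peak stood, in A2a and D1, at 17.8 and 25.9 for Gpr6, 2.15 and 3.07 for Gpr52, 8.86 and 15.1 for P2ry1, and 17.7 and 21.5 for Grik3, and at 43.0 for Ttc12 in A2a. By length the largest island stood, in A2a and D1, at 67.0 and 91.0 for P2ry1, 67.0 and 99.7 for Grik3, and 62.0 and 98.4 for Ttc12. In D1 it stood at 99.1 for Gpr6, 30.4 for Gpr52 and 99.7 for Ankk1.

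The length of a D1 domain depended on the joining distance, in settings added after seeing the data. At 3 kb the domain over Grik3 was 461.2 kb (still the longest), over Gpr6 149.4 kb (rank 15) and over Ankk1 and Ttc12 84.4 kb (rank 72), which no longer held the Drd2 and Ttc12 starts. At 10 kb these were 620.2 (rank 2), 184.2 (rank 66) and 154.2 kb (rank 111), against ranks 1, 14 and 30 as reported. No paired analysis was possible because each list pools its replicates, and for the same reason no replicate could be left out.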

Other observations

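Most of the 35 genes covered at least 50 points more in D1 had no H3K4me3 promoter peak in either list. Among all genes, 55.6% had a promoter peak in both lists and 2.59% in A2a alone. Beside Ankk1, the highest of the 35 without a peak were Gm4894 (0% in A2a and 97.5% in D1), Il3 (0% and 90.6%) and Ccl12 (0% and 88.8%). Upb1 (0% and 88.7%) and Olfr1158 (0% and 83.7%) followed. Genes of the 35 with a peak in both lists included Cdca7 (0% and 72.6%), Gucd1 (0.829% and 67.0%) and Htr4 (12.7% and 68.2%). Apart from the 4 members, 3 of the 35 (Adora2a, Drd2 and Penk) were established markers of the indirect pathway. These genes were named after their values were seen.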
